A study of Danio rerio with 20 samples.

Results

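The genes described here encode the SLC25 family, the carriers that move metabolites, nucleotides, phosphate and cofactors across the inner mitochondrial membrane. Members were all rows of the count table whose Ensembl zebrafish symbol begins with slc25a, read without regard to case, plus the uncoupling proteins ucp1, ucp2 and ucp3. This rule found 62 of 32105 genes, of which 52 had enough counts to be tested and 10 did not. Symbols stand in the mixed case of the name table, and 18 of the member rows share 9 symbols, so those rows carry their Ensembl identifier.

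The inner mitochondrial membrane is closed to most charged molecules, and each SLC25 carrier exchanges or imports a narrow set of them. In muscle the ADP/ATP carriers return fresh ATP to the myofibrils, the phosphate carrier supplies the ATP synthase, and the oxoglutarate and aspartate/glutamate carriers form the malate-aspartate shuttle that brings reducing power from glycolysis into the matrix. Uncoupling proteins belong to the same family and are known for carrying protons or metabolites without making ATP.

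Total RNA from muscle of male fish, labelled AB JxTu, had been sequenced with a TruSeq kit. The libraries fall into 4 groups of 5 libraries: 3-year-old fish after a swim tunnel (3y_swim), in which fish swim against a current, 3-year-old fish with no perturbation (3y_control), 1-year-old fish after a swim tunnel (1y_swim) and 1-year-old fish with no perturbation (1y_control). The labels do not give the length of the swim, the muscle sampled, or whether a library is 1 fish or a pool. Libraries are numbered within a group in the order of their records. Totals ran from 31550213 to 48920974 counts per library. Nothing in the labels shows how fish were raised or batched, so each p-value is relative to the spread among the libraries of a group, part of which may be technical.

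Markers of fast muscle fibres were high in every library, with summed levels of 86210 to 141200 CPM. CPM is the count as a share of the library's total, which is the plain total for marker sums and the TMM-scaled total for single genes. Markers of other tissues differed between groups. Exocrine pancreas markers summed to 31.4 to 156.8 CPM in 1y_swim and 2.65 to 17.1 CPM in 1y_control, and 11 of their 13 genes were higher in 1y_swim. Liver markers summed to 2.54 to 27.6 CPM in 3y_swim and 41.2 to 649.8 CPM in 1y_swim, and 10 of 10 tested genes were lower in 3y_swim. Of these lists CPA1 (ENSDARG00000030915), ela2, PLA2G1B, amy2a, TTR and hp had 0 counts in at least 1 library. Epidermis markers summed to 5781 CPM in 1y_control 5, 3084 CPM in 3y_swim 3 and 2501 CPM in 3y_swim 1, and to 180.6 to 658 CPM in the other libraries. Their genes cyt1l, agr1 and cldn1 had 0 counts in at least 1 library. The leukocyte sum was also highest in 1y_control 5 (551.7 CPM). The TMM factor, which scales each library for its composition, was 0.659 to 0.946 in 1y_swim and 1.04 to 1.25 in 1y_control, and it was lowest in 1y_swim 3 (0.659) and 1y_swim 2 (0.795). The part of these differences in the results below was not tested, except where values without a library are given.

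Levels of different carriers were compared as RPKM, the count divided by the gene's length and by the library's total. The ADP/ATP carriers SLC25A5 and SLC25A4 stood far above the other members, with means over all 20 libraries of 3087 and 2006 RPKM, followed by the phosphate carrier SLC25A3 (ENSDARG00000025566) with 481.8 RPKM. The oxoglutarate carrier SLC25A11 had 173.6 RPKM and the aspartate/glutamate carrier SLC25A12 had 108.8 RPKM. Then came ucp3 with 89.0 RPKM, the calcium-regulated ATP-Mg/phosphate carrier SLC25A25 (ENSDARG00000010572) with 81.9 RPKM and slc25a55b with 72.5 RPKM. The acylcarnitine carrier SLC25A20 and the pyrimidine nucleotide carrier SLC25A33 closed the 10 highest members with 32.9 and 29.8 RPKM. In all, 5 members averaged at least 100 RPKM, 14 at least 10 RPKM, 24 between 1 and 10 RPKM and 24 under 1 RPKM. The order of SLC25A5 and SLC25A4 was not fixed: in 3y_swim their RPKM ranged from 905.6 to 3158 and from 1218 to 2012, so the libraries overlapped, and they overlapped in 1y_control too, whereas in 3y_control and 1y_swim every SLC25A5 library was above every SLC25A4 library. The ranges of ucp3, SLC25A25 and slc25a55b overlapped in 3y_swim, 3y_control and 1y_control, while in 1y_swim slc25a55b lay below both (45.1 to 60.0 RPKM). The lowest library of SLC25A3 (ENSDARG00000025566) lay above the highest library of SLC25A11 in each group.

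**Figure D1:**
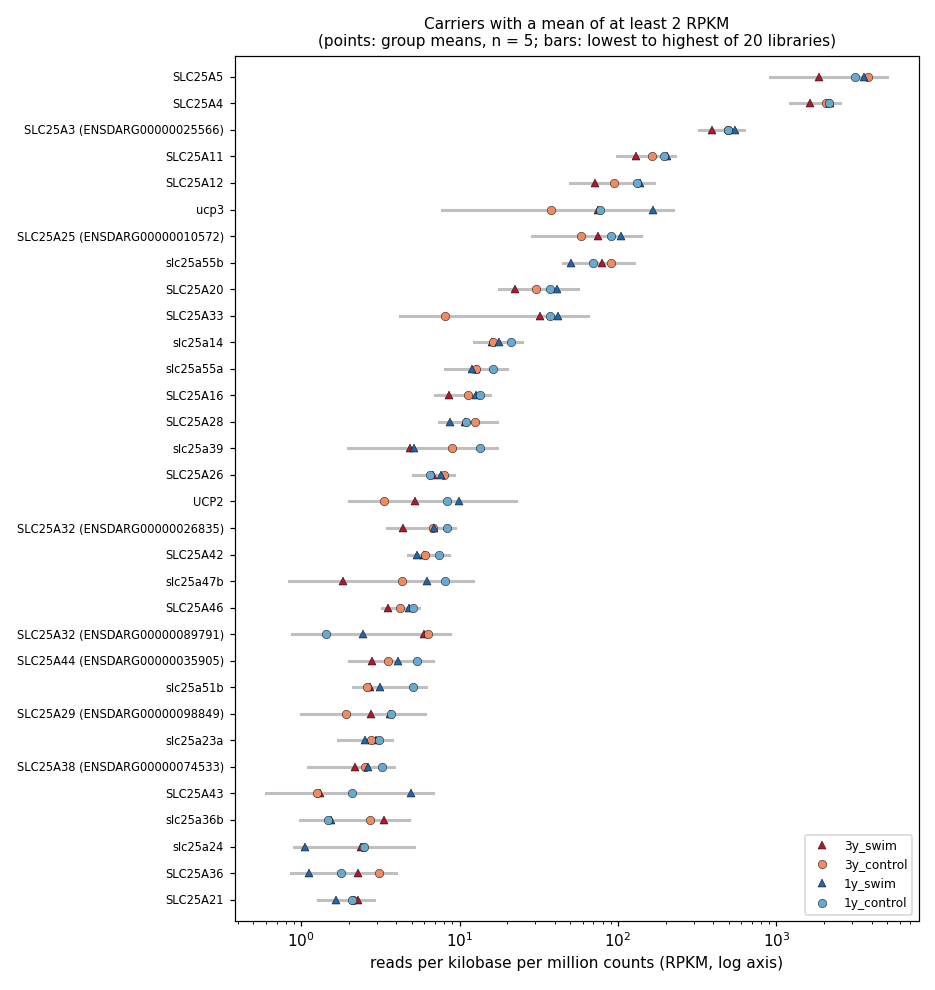
Level per length (RPKM, log axis) of the 32 members that averaged at least 2 RPKM, with 1 row per carrier; symbols are means of 5 libraries of each group and grey bars run from the lowest to the highest of 20 libraries. SLC25A5 and SLC25A4 stand apart at the top, and the grey bars of ucp3 and SLC25A33 are among the longest of the abundant members.

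Members together took 0.840 ± 0.147% of all counts in 3y_swim, 1.22 ± 0.147% in 3y_control, 1.30 ± 0.187% in 1y_swim and 1.19 ± 0.199% in 1y_control (SD, n = 5). The 3y_swim libraries (0.679 to 0.970%) lay below all libraries of 3y_control (1.03 to 1.44%) and of 1y_swim (1.11 to 1.61%) and overlapped 1y_control (0.877 to 1.41%). SLC25A4 and SLC25A5 held between 69.6% and 82.1% of the family's counts in every library.

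Several paralogues were nearly silent. The 10 members that could not be tested averaged 0.05 to 21.7 counts per library, and 9 of them had 0 counts in at least 1 library. Among them was SLC25A37, the erythroid iron importer mitoferrin 1, with 0 to 7 counts, whereas the more widely used iron importer SLC25A28 averaged 10.7 RPKM (both named after their values were seen). The third ADP/ATP carrier row, SLC25A6, averaged 5.95 counts per library (also named after its values were seen). How reads that fit several similar genes were treated is not given in the sources used here, so reads of close paralogues may be split between rows.

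Each comparison was tested over all 17025 genes with sufficient counts by edgeR's quasi-likelihood test with Benjamini-Hochberg adjustment, and a gene is called when its adjusted p is under 0.05. Shares of all genes called belong to this fit. Where carrier counts of other settings are given, the share of all genes is not, so an excess of carriers cannot be read from them. Changes are log2 changes with standard errors (SE). Old against young fish after the swim tunnel (3y_swim minus 1y_swim) gave the most calls of the 4 comparisons of groups: 16 of 52 carriers fell and 5 rose, against 17.7% of all tested genes called, 10.1% of all genes being lower and 7.59% higher. The median change of the 52 carriers was -0.56, against 0.03 over all genes tested. In 18 carriers the groups did not overlap (2 with 3y_swim above and 16 below), against 12.9% of all genes (5.43% above and 7.44% below). Overlap of single genes, here and below, is judged in CPM of TMM-scaled totals unless RPKM is named. When libraries were scaled by their totals alone, 7 carriers were called higher and 13 lower, with a median of -0.34 for the carriers and 0.29 for all genes. In the same comparison 12 of 13 exocrine pancreas markers (median -3.79), 10 of 10 liver markers and 3 of 10 tested erythroid markers were called lower, and their part in the carrier changes was not tested.

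Without the swim tunnel the age comparison (3y_control minus 1y_control) gave 3 carriers higher and 2 lower, against 1.19% of all genes called (0.658% higher and 0.535% lower), with a carrier median of -0.27 against 0.01 over all genes. Groups did not overlap in 7 carriers, 3 with 3y_control above and 4 below, against 4.14% of all genes (2.16% above and 1.99% below). Averaged over both exercise states, 24 carriers were lower and 4 higher at 3 years, against 20.2% of all genes called, 10.7% lower and 9.57% higher, with a median of -0.45 against 0.01. Library totals gave 15 lower and 5 higher there. The averaged comparison uses the same libraries as the separate ones and adds precision, not independent samples.

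The swim tunnel moved fewer carriers. At 1 year (1y_swim minus 1y_control) 3 carriers rose and none fell, against 1.14% of all genes called (0.793% higher and 0.347% lower). An unadjusted p under 0.05 was found in 19 of 52 carriers, 15 of them higher, against 3274 of 17025 genes, 1879 of them higher. Groups did not overlap in 6 carriers, 5 with 1y_swim above and 1 below, against 4.02% of all genes (2.41% above and 1.61% below). The carrier median was 0.25 against -0.01 over all genes; with library totals it was -0.11, with a median over all genes of -0.40, so the sign turned, and the calls became 0 higher and 5 lower. Exocrine pancreas markers were higher in the same comparison (11 of 13 genes), and their part in the carrier changes was not tested. At 3 years (3y_swim minus 3y_control) no carrier was called by edgeR, against 0.0705% of all genes (0.047% higher and 0.0235% lower), and DESeq2 called 1. With edgeR 7 of 52 carriers had an unadjusted p under 0.05, against 1537 of 17025 genes. Only SLC25A48 had groups that did not overlap, with 3y_swim above, against 1.67% of all genes (0.875% above and 0.793% below). The carrier median was -0.11 against -0.01 over all genes. Averaged over both ages 2 carriers rose and none fell, against 0.628% of all genes (0.435% higher and 0.194% lower); with library totals 2 rose and 1 fell.

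**Figure D2:**
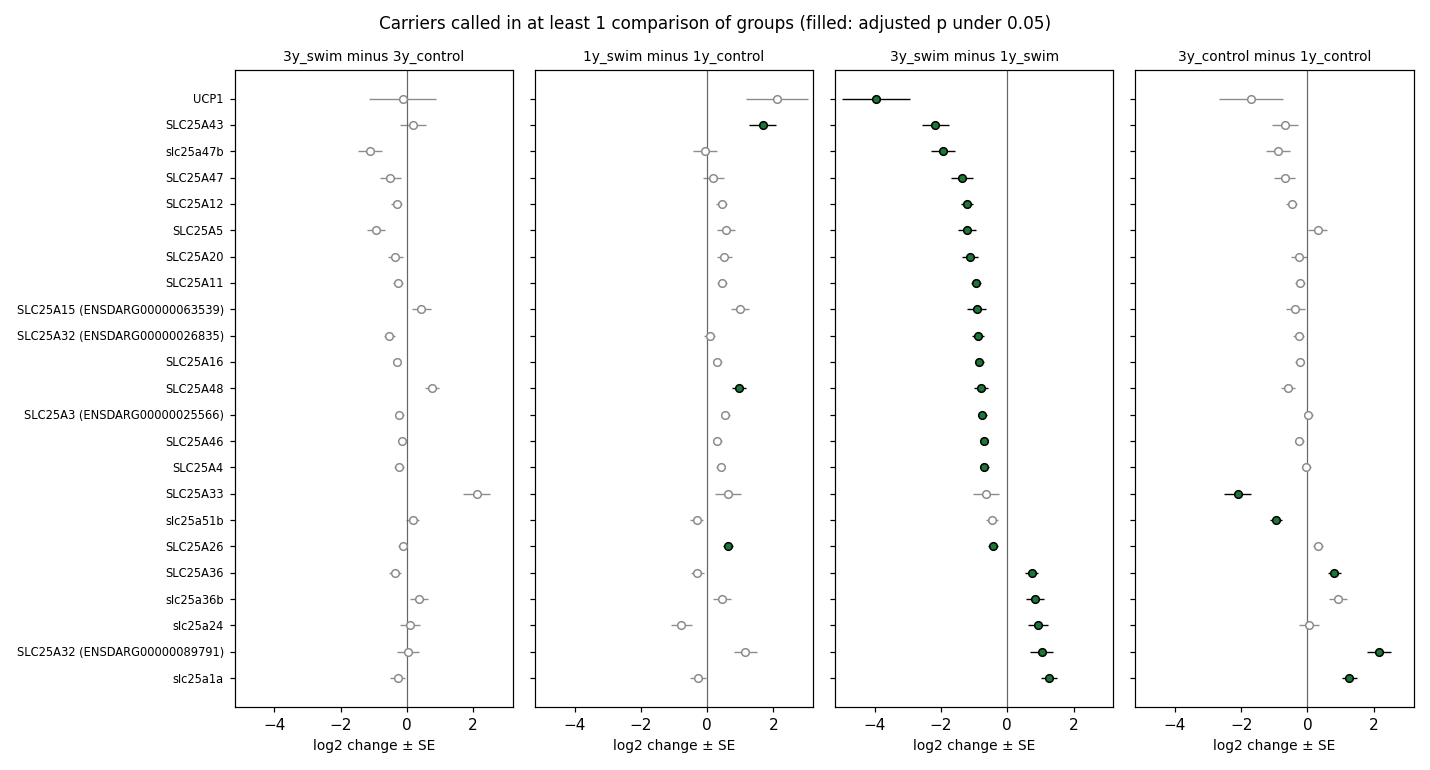
Log2 change ± SE of the 23 members called in at least 1 of the 4 comparisons of groups, with 1 panel per comparison; filled points have an adjusted p under 0.05 and the rows follow the change of 3y_swim minus 1y_swim. The third panel holds 21 filled points, 16 of them left of 0, and the first panel holds none.

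The ADP/ATP carriers and the phosphate carrier, the machinery that feeds and empties the ATP synthase, were all lower in old exercised fish. SLC25A5 fell by 1.21 on the log2 scale (SE 0.28, adjusted p = 0.00595 by edgeR). It measured 2362, 2289, 4201, 2775 and 1361 CPM in the 3y_swim libraries, 6774, 4435, 4941, 4806 and 3855 CPM in 3y_control, 5349, 6711, 5848, 4667 and 7421 CPM in 1y_swim and 1845, 4901, 3908, 5466 and 3984 CPM in 1y_control. Every 3y_swim library was below every 1y_swim library, whereas 3y_swim 3 (4201 CPM) lay within the range of both control groups. In RPKM, which uses plain totals, 3y_swim (905.6 to 3158) and 1y_swim (2724 to 4959) overlapped. The libraries 3y_swim 1, 3y_swim 2 and 3y_swim 4 were below 3y_control but within the range of 1y_control, and 3y_swim 5 (1361 CPM) was below both. SLC25A4 measured 3245, 4031, 3031, 3068 and 3664 CPM in 3y_swim and 5211, 5347, 6122, 5181 and 5616 CPM in 1y_swim, again without overlap, and changed by -0.69 ± 0.14 (SE, adjusted p = 0.00251 by edgeR). In RPKM SLC25A4 overlapped, at 1218 to 2012 in 3y_swim and 1915 to 2519 in 1y_swim. Its control groups were close to each other, at 4031 ± 722 CPM in 3y_control and 4131 ± 514 CPM in 1y_control (SD, n = 5).

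The phosphate carrier SLC25A3 (ENSDARG00000025566) had 933, 787, 820.1, 819.7 and 775 CPM in 3y_swim, 1176, 909.6, 908, 963 and 908 CPM in 3y_control, 1204, 1413, 1750, 1191 and 1410 CPM in 1y_swim and 784, 983, 1021, 1162 and 832 CPM in 1y_control. With TMM-scaled totals the 1y_swim libraries were above all others, including all of 1y_control, and the 3y_swim libraries were below all of 1y_swim. In RPKM, which uses plain totals, 1y_swim (496.6 to 627.3) overlapped 1y_control (413.1 to 586.8) and 3y_control (452.6 to 580.9). It also overlapped 3y_swim (322.8 to 506.3) there. The change of SLC25A3 (ENSDARG00000025566) between 3y_swim and 1y_swim was -0.75 ± 0.14 (SE, adjusted p = 0.00126 by edgeR). Its change with the swim tunnel at 1 year, 0.54 ± 0.14, did not pass (adjusted p = 0.0552 by edgeR, while DESeq2 gave 0.00293). The second row of that symbol, SLC25A3 (ENSDARG00000027424), was near the floor with 0.027 to 0.417 CPM in 3y_swim and 0.107 to 0.37 CPM in 1y_swim.

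**Figure D3:**
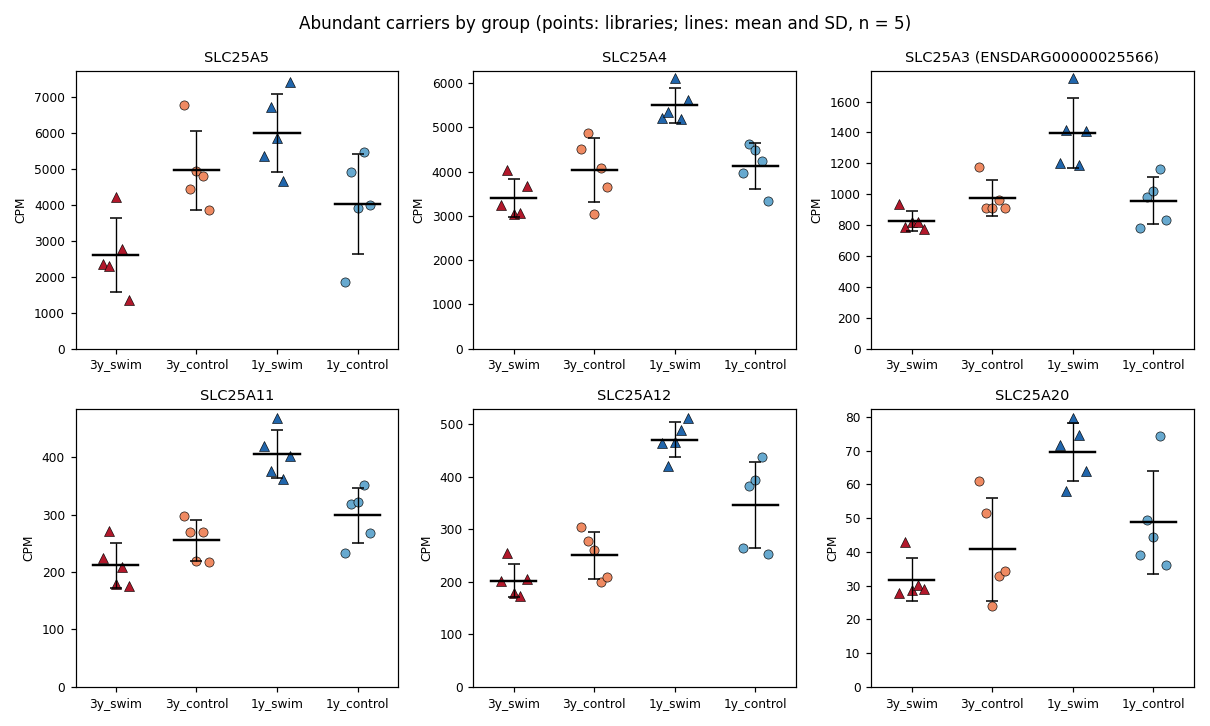
CPM of 6 abundant carriers by group, with 1 point per library and lines for the mean and SD of 5 libraries; axes start at 0. In all 6 panels, drawn with TMM-scaled totals, every 3y_swim library lies below every 1y_swim library. In RPKM, which uses plain totals, this holds for SLC25A11, SLC25A12 and SLC25A20, whereas SLC25A5, SLC25A4 and SLC25A3 (ENSDARG00000025566) overlap.

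Carriers of the malate-aspartate shuttle moved in the same direction. SLC25A12, the calcium-sensitive aspartate/glutamate carrier of muscle and brain, had 202, 254, 178, 173 and 205 CPM in 3y_swim, 305, 278, 259.8, 199 and 209.7 CPM in 3y_control, 464, 422, 467, 489 and 512 CPM in 1y_swim and 264, 382, 394, 437 and 254 CPM in 1y_control. The gap between 3y_swim and 1y_swim was wide, with 254.2 CPM the highest library of 3y_swim and 421.5 CPM the lowest of 1y_swim, and the change was -1.22 ± 0.17 (SE, adjusted p = 0.000196 by edgeR). Averaged over both exercise states SLC25A12 was lower at 3 years (log2 change -0.84, adjusted p = 0.000206), but among unexercised fish its change of -0.47 did not pass (adjusted p = 0.173). SLC25A11, the oxoglutarate/malate exchanger that completes the shuttle, had 224, 272, 179.6, 209 and 175 CPM in 3y_swim and 419.6, 376, 469, 362 and 402 CPM in 1y_swim, without overlap, a change of -0.94 ± 0.15 (SE, adjusted p = 0.000501). In 1y_swim every SLC25A11 library was also above every 1y_control library (highest 351.8 CPM), yet the change of 0.44 did not pass (adjusted p = 0.123). In RPKM, which uses plain totals, SLC25A11 overlapped, at 179.1 to 228.1 in 1y_swim and 156.9 to 226.5 in 1y_control.

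Of the 9 tested carriers of aspartate, glutamate and other amino acids, 2 fell and 7 did not pass between 3y_swim and 1y_swim, all 9 with a negative change, and 6 of 9 were lower at 3 years averaged over both exercise states. The shares of all genes called lower in these comparisons were 10.1% and 10.7%. The ornithine carrier SLC25A15 (ENSDARG00000063539) averaged 1.05 ± 0.281 CPM in 3y_swim and 1.99 ± 0.366 CPM in 1y_swim (SD, n = 5), a change of -0.93 ± 0.28 (SE, adjusted p = 0.0301 by edgeR). Its second row, SLC25A15 (ENSDARG00000062271), was called by edgeR only in the averaged age comparison (-0.65, adjusted p = 0.0344), in 10 of 20 fits that left out 1 library and under 3 of 7 other settings, while DESeq2 also called it between 3y_swim and 1y_swim (-0.81, adjusted p = 0.0411). Also called there were SLC25A44 (ENSDARG00000035905), which imports branched-chain amino acids (-0.67, adjusted p = 0.0202; its second row, SLC25A44 (ENSDARG00000045927), gave -0.78 and did not pass), SLC25A29 (ENSDARG00000098849), a carrier of basic amino acids (-0.75, adjusted p = 0.026), and SLC25A38 (ENSDARG00000074533), the glycine carrier of heme synthesis (-0.43, adjusted p = 0.0357). The averaged calls of SLC25A44, SLC25A29 and SLC25A38 held in 20, 18 and 8 of 20 fits that left out 1 library, with adjusted p of up to 0.0769, and under 6, 6 and 5 of 8 other settings. The other row named SLC25A38 (ENSDARG00000059805) was not tested, because few libraries held enough counts of it: 1y_swim 1 to 5 held 7, 71, 228, 6 and 64 counts, and no library outside that group exceeded 17 counts.

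All 4 tested carriers grouped as carnitine and related were lower in 3y_swim than in 1y_swim, against 10.1% of all genes. All 4 were also lower at 3 years in the averaged comparison, against 10.7% of all genes. Of the 4, SLC25A20 is the acylcarnitine carrier. SLC25A20, which exchanges acylcarnitines for carnitine and so admits long-chain fatty acids to the matrix, had 27.9, 43, 28.7, 30.2 and 29.1 CPM in 3y_swim and 71.7, 58.1, 79.6, 74.6 and 64 CPM in 1y_swim. The groups did not overlap, and the change was -1.13 ± 0.23 (SE, adjusted p = 0.00302 by edgeR). Control fish spread more widely, from 23.8 to 61.1 CPM in 3y_control and 36.1 to 74.4 CPM in 1y_control.

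SLC25A47 and slc25a47b, related carriers found mainly in liver in mammals, fell, with changes of -1.37 ± 0.32 and -1.94 ± 0.38 (log2 change ± SE, adjusted p = 0.00717 and 0.00203 by edgeR). In 3y_swim slc25a47b measured 1.98, 1.79, 0.734, 1.58 and 2.46 CPM, in 3y_control 3.69, 3.08, 4.28, 5.14 and 2.45 CPM, in 1y_swim 6.18, 4.14, 2.38, 8 and 12.1 CPM and in 1y_control 5.17, 8.71, 7.77, 8.78 and 4.23 CPM. The 3y_swim libraries overlapped 1y_swim only through 1y_swim 3 (2.38 CPM). Liver marker sums of 1y_swim 1 to 5 were 177.3, 649.8, 41.2, 347.4 and 73.9 CPM. The lowest slc25a47b library of the group, 1y_swim 3, also had its lowest liver sum. The highest slc25a47b library, 1y_swim 5, had a liver sum of 73.9 CPM, while 1y_swim 2, with the highest liver sum, had 4.14 CPM of slc25a47b. The part of liver RNA in the fall of slc25a47b was not tested.

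The fourth member of that group, SLC25A48, which in mammals is tied to mitochondrial choline uptake rather than to carnitine, was called in the swim comparisons as well. It had 3.09, 3.35, 3.67, 4.2 and 4.99 CPM in 3y_swim and 2.67, 2.95, 1.8, 1.71 and 2.29 CPM in 3y_control, and 5.85, 8.32, 7.4, 6.26 and 5.59 CPM in 1y_swim and 3.36, 3.53, 1.87, 4.29 and 4.21 CPM in 1y_control. With TMM-scaled totals every swim library was above every control library of that age, at both ages. In RPKM, which uses plain totals, this held at 3 years, whereas 1y_swim (2.339 to 3.169) overlapped 1y_control (0.9273 to 2.514). The change was 0.95 ± 0.21 at 1 year (SE, adjusted p = 0.0393 by edgeR) and 0.75 ± 0.21 at 3 years, where it did not pass (adjusted p = 0.281), and 0.85 ± 0.15 averaged over both ages (adjusted p = 0.016). With library totals the call at 1 year was lost (0.53, adjusted p = 0.0966 by edgeR). SLC25A48 was also lower in 3y_swim than in 1y_swim (log2 change -0.79, adjusted p = 0.0152). Its averaged swim call held in all 20 fits that left out 1 library, with an adjusted p of up to 0.041, and was lost without 1y_swim 2 and 1y_swim 3 together.

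Of 12 tested slow-fibre markers, 2 were called lower in 3y_swim than in 1y_swim, and the changes of the 12 were mixed, with 5 positive and 7 negative. Their summed levels were 3062 to 4896 CPM in 3y_swim, 3780 to 6912 CPM in 3y_control, 6388 to 7761 CPM in 1y_swim and 5069 to 8174 CPM in 1y_control. Most of that sum came from the 2 rows named CKMT2, a mitochondrial creatine kinase. Without them the sums of the other 11 rows overlapped, at 339.6 to 1546 CPM in 3y_swim and 238.6 to 2236 CPM in 1y_swim. Fast-fibre markers overlapped (103300 to 117800 CPM in 3y_swim and 102200 to 107100 CPM in 1y_swim). Leukocyte markers were higher in 3y_swim, with 8 of 13 called and sums of 289.6 to 472.5 CPM, against 93.4 to 151.1 CPM in 1y_swim. The part of these markers in the carrier changes was not tested, and in bulk muscle fewer fibres of a type and less RNA per fibre cannot be told apart.

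Among the uncoupling proteins, ucp3, the form of skeletal muscle, was the sixth most abundant carrier per length and one of the most variable. It measured 238, 278, 117, 157 and 171 CPM in 3y_swim, 73.5, 69.7, 62.8, 110.2 and 150 CPM in 3y_control, 366, 742, 851, 298 and 461 CPM in 1y_swim and 18.3, 114, 82.9, 356 and 331 CPM in 1y_control. Swim and control groups overlapped at both ages, while 3y_swim lay wholly below 1y_swim. In RPKM, which uses plain totals, 3y_swim (47.06 to 111.1) overlapped 1y_swim (107 to 223.5). The fit over all 20 libraries did not call ucp3 between these groups. DESeq2 did (-1.49, adjusted p = 0.0226), as did edgeR on only the 10 libraries compared (-1.48, adjusted p = 0.0129) and without 1y_control 1 (-1.50, adjusted p = 0.0174). The swim change of ucp3 was 1.59 ± 0.54 at 1 year and 1.04 ± 0.54 at 3 years, and neither passed by edgeR (adjusted p = 0.129 and 0.578), although DESeq2 called the change at 1 year (adjusted p = 0.0472). Averaged over exercise states, ucp3 was lower at 3 years, with a change of -1.23 ± 0.38 (SE, adjusted p = 0.0286 by edgeR). That call was lost without 1y_control 4 (-1.03), 1y_control 5 (-1.05), 1y_swim 2 (-1.16), 3y_control 3 (-1.17) or 3y_swim 3 (-1.14), with adjusted p up to 0.0648, under voom with quality weights (-0.67, adjusted p = 0.231), without 1y_swim 2 and 1y_swim 3 together (-0.96, adjusted p = 0.104) and without the 3 libraries of highest epidermis markers (-1.01, adjusted p = 0.124).

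UCP2, a widely expressed form, was lower per length in every group. It had 18.4, 9.39, 10.9, 9.59 and 12.6 CPM in 3y_swim, 6.8, 5.42, 9.96, 8.66 and 5.86 CPM in 3y_control, 13.7, 37.9, 46.3, 16.9 and 30.8 CPM in 1y_swim and 4.27, 8.18, 6.03, 23.3 and 43.5 CPM in 1y_control, and was lower at 3 years, with a change of -1.24 ± 0.35 in the averaged comparison (SE, adjusted p = 0.0184 by edgeR). The UCP2 call was lost under voom with quality weights (-0.58, adjusted p = 0.203), without 1y_swim 2 and 1y_swim 3 together (-0.99, adjusted p = 0.0717) and without the 3 libraries of highest epidermis markers (-0.98, adjusted p = 0.0539). The ratio of ucp3 to UCP2 levels per length had a median of 12.2 in 3y_swim, 11.5 in 3y_control, 16.6 in 1y_swim and 12.4 in 1y_control, with ranges that overlapped between groups.

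The 2 genes are neighbours on chromosome 10 in the RefSeq annotation, and the same libraries were high for both: 1y_swim 2, 3 and 5, and 1y_control 4 and 5. SLC25A43, a carrier without an agreed substrate, was highest in the same libraries, with 5.34, 14.1, 15.9, 7.36 and 13.6 CPM in 1y_swim and 1, 2.45, 2.6, 5.28 and 6.21 CPM in 1y_control, and so was the untested SLC25A38 row above (these likenesses were noticed after the values were seen). SLC25A43 neighbours slc25a5 on chromosome 14 in RefSeq. In TMM-scaled CPM the highest 1y_swim libraries of SLC25A5 were 1y_swim 5 (7421 CPM), 1y_swim 2 (6711 CPM) and 1y_swim 3 (5848 CPM). In RPKM, which uses plain totals, 1y_swim 3 was instead the lowest SLC25A5 library of its group (2724 RPKM, others 3117 to 4959). Its highest 1y_control libraries were 1y_control 4 (5466 CPM) and 1y_control 2 (4901 CPM), with 3984 CPM in 1y_control 5. The part of gene position in these likenesses was not tested.

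SLC25A43 rose with the swim tunnel at 1 year by 1.68 ± 0.40 (SE, adjusted p = 0.0489 by edgeR), although the groups overlapped. At 3 years it measured 1.69, 3.03, 2.58, 3.92 and 1.24 CPM in 3y_swim and 2, 2.18, 2.29, 2.06 and 2.45 CPM in 3y_control, a change of 0.18 ± 0.40 that did not pass. Between 3y_swim and 1y_swim it fell, with a change of -2.17 ± 0.41 (log2 change ± SE, adjusted p = 0.0018), with no overlap. The difference between its swim effects, -1.50, did not pass (adjusted p = 0.233).

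UCP1 was the lowest per length of ucp1, ucp2 and ucp3 and showed the lowest log2 change of any tested carrier. It had 0.167, 0.646, 1.38, 0.0556 and 0.216 CPM in 3y_swim, 0.231, 2.27, 0.0481, 0.0232 and 0.0527 CPM in 3y_control, 5.85, 18.3, 3.37, 7.36 and 3.19 CPM in 1y_swim and 1.99, 0.419, 0.52, 1.7 and 4.08 CPM in 1y_control. All 3y_swim libraries lay below all 1y_swim libraries, and the change was -3.96 ± 1.04 (SE, adjusted p = 0.0131 by edgeR). In carp, a relative of the zebrafish, ucp1 is expressed mainly in liver. Few reads of UCP1 were counted at 3 years, with 2 to 47 counts in 3y_swim and 1 to 103 in 3y_control. The highest UCP1 library, 1y_swim 2 (18.3 CPM), also had the highest liver marker sum (649.8 CPM). The highest of 3y_control, 3y_control 2 (2.27 CPM), had the highest liver sum of its group (130.8 CPM), and so did 3y_swim 3 (1.38 CPM), the highest of 3y_swim (27.6 CPM). In 1y_control the highest UCP1 library was 1y_control 5 (4.08 CPM) with a liver sum of 37.4 CPM, while 1y_control 1 with a liver sum of 162.8 CPM had 1.99 CPM. The part of liver RNA in the UCP1 result was not tested.

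**Figure D4:**
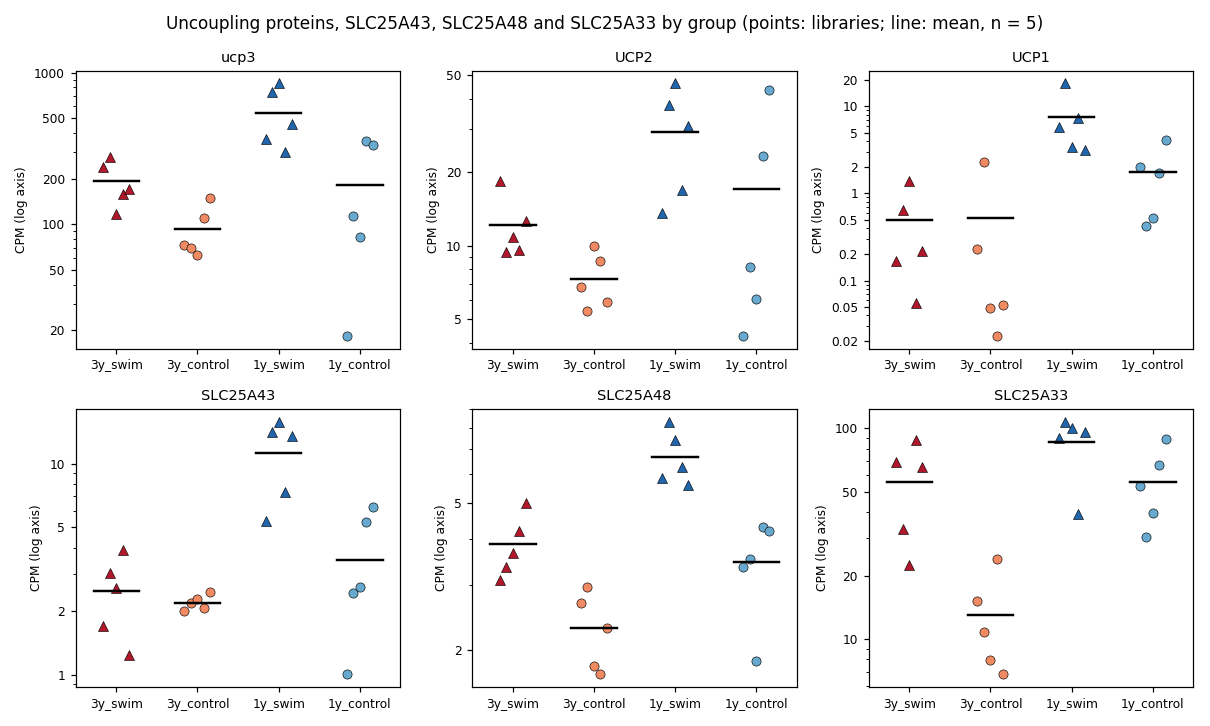
CPM (log axis) of the 3 uncoupling proteins, SLC25A43, SLC25A48 and SLC25A33 by group, with 1 point per library and a line at the mean of 5 libraries. SLC25A48 separates swim from control libraries at both ages with these TMM-scaled totals, but only at 3 years in RPKM. SLC25A33 is low in 3y_control, and ucp3, UCP2 and SLC25A43 spread widely in 1y_control.

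SLC25A33, a pyrimidine nucleotide carrier that supplies mitochondrial DNA and RNA synthesis, was low in old fish at rest. It had 69.1, 33.2, 22.4, 87.6 and 65.4 CPM in 3y_swim, 15.2, 10.8, 7.92, 23.9 and 6.8 CPM in 3y_control, 90.02, 108, 99.9, 39.1 and 96.2 CPM in 1y_swim and 53.5, 30.5, 39.8, 67 and 88.7 CPM in 1y_control. All 3y_control libraries were below all 1y_control libraries, and 1 of them (3y_control 4, 23.9 CPM) reached the lowest 3y_swim library (22.4 CPM). The age change at rest was -2.11 ± 0.41 (SE, adjusted p = 0.0169 by edgeR). The swim change at 3 years was 2.10 ± 0.41 and did not pass by edgeR (adjusted p = 0.073), whereas DESeq2 called it (adjusted p = 0.000144). Averaged over both ages SLC25A33 rose with the swim tunnel by 1.37 ± 0.29 (adjusted p = 0.0339), a call kept in 8 of 20 fits that left out 1 library. The difference between the swim effects at the 2 ages, 1.47 ± 0.56, did not pass (adjusted p = 0.237).

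Averaged over both exercise states, the other pyrimidine nucleotide carriers moved the opposite way with age. There SLC25A33 was called lower at 3 years, and SLC25A36 and slc25a36b were called higher. Between 3y_swim and 1y_swim SLC25A33 was not called. SLC25A36 averaged 11.2 ± 2.86 CPM in 3y_swim, 14.4 ± 3.03 CPM in 3y_control, 6.72 ± 1.18 CPM in 1y_swim and 8.25 ± 1.54 CPM in 1y_control (SD, n = 5). It was higher at 3 years without exercise by 0.81 ± 0.19 and after the swim tunnel by 0.74 ± 0.19 (log2 change ± SE, adjusted p = 0.0461 and 0.0131 by edgeR). Its paralogue slc25a36b averaged 12.9 ± 2.72 CPM in 3y_swim and 7.2 ± 1.24 CPM in 1y_swim, a rise of 0.84 ± 0.27 (adjusted p = 0.0354) in which no library overlapped. At rest slc25a36b overlapped, with 4.80 to 18.1 CPM in 3y_control and 4.21 to 6.45 CPM in 1y_control, and was not called by edgeR.

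The largest rise with age at rest among tested carriers was that of a row named SLC25A32, the carrier of folate and flavin cofactors. SLC25A32 (ENSDARG00000089791) had 19.4, 31.4, 13.2, 36.5 and 13.1 CPM in 3y_swim, 20.8, 22.5, 18.3, 28.4 and 20.7 CPM in 3y_control, 18.4, 13.2, 8.92, 10.4 and 4.5 CPM in 1y_swim and 2.98, 6.33, 3.64, 7.24 and 4.68 CPM in 1y_control. Every 3y_control library was above every 1y_control library, with a change of 2.15 ± 0.35 (SE, adjusted p = 0.00887 by edgeR), and after the swim tunnel the groups overlapped with a change of 1.04 ± 0.34 (adjusted p = 0.0425). SLC25A32 (ENSDARG00000026835) went the other way, with 5.34, 5.74, 4.52, 4.92 and 5.18 CPM in 3y_swim and 11.4, 7.54, 7.23, 10.1 and 11 CPM in 1y_swim, no overlap, and a change of -0.88 ± 0.17 (adjusted p = 0.00215). In RPKM, which uses plain totals, this row overlapped, at 3.48 to 5.207 in 3y_swim and 4.03 to 8.775 in 1y_swim.

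Within a library, the ratio of the first row to the second, both per length, was 0.789 to 2.32 in 3y_swim, 0.671 to 1.36 in 3y_control, 0.128 to 0.546 in 1y_swim and 0.107 to 0.262 in 1y_control. The lowest ratio at 3 years (0.671) was above the highest at 1 year (0.546), so the ratio separated all 10 old from all 10 young libraries, whatever the exercise. The rows were picked out after these values were seen, so no test is given. Of 11 paralogue or neighbour pairs compared in this way the ratio SLC25A5 to SLC25A4 had medians of 1.09 in 3y_swim, 1.75 in 3y_control, 1.53 in 1y_swim and 1.58 in 1y_control, with overlapping ranges.

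**Figure D5:**
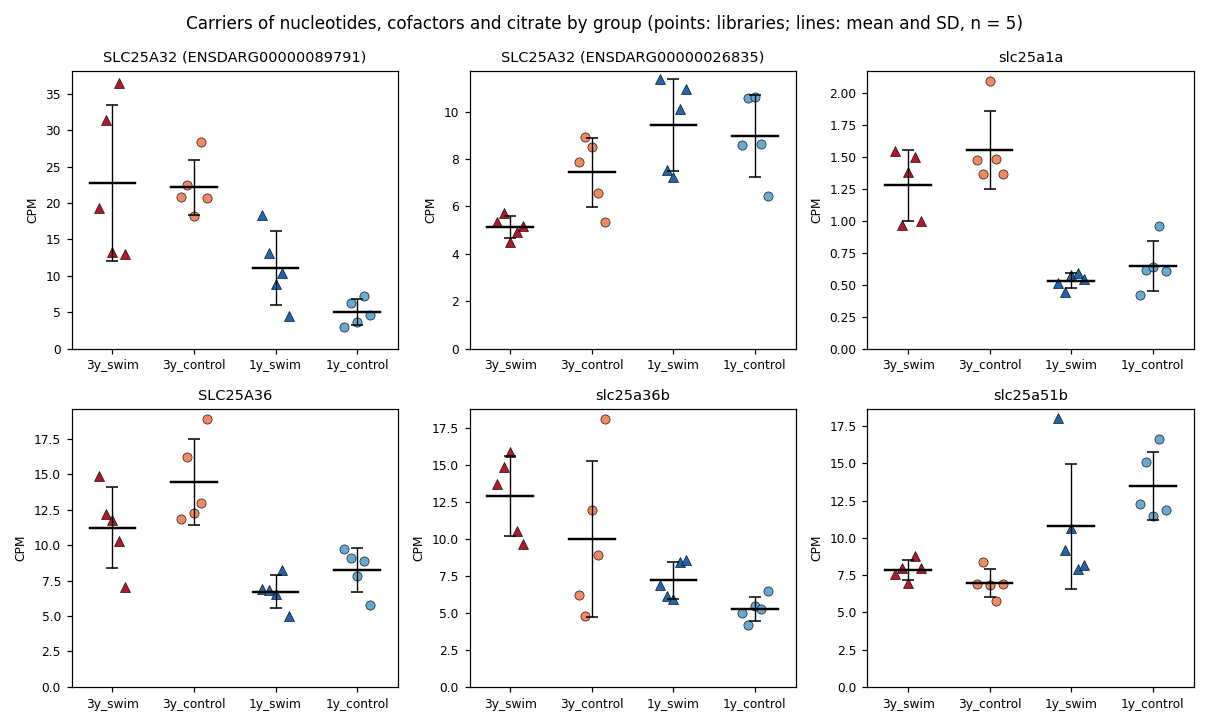
CPM of 6 carriers of nucleotides, cofactors and citrate by group, with 1 point per library and lines for the mean and SD of 5 libraries; axes start at 0. SLC25A32 (ENSDARG00000089791), slc25a1a, SLC25A36 and slc25a36b have higher means in both 3-year groups, and SLC25A32 (ENSDARG00000026835) and slc25a51b have lower ones.

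The remaining carriers of nucleotides, cofactors and vitamins were split. Of the 11 tested, 3 rose and 3 fell between 3y_swim and 1y_swim, against 7.59% and 10.1% of all genes. In the averaged comparison 3 were higher and 5 lower at 3 years, against 9.57% and 10.7% of all genes. SLC25A16, linked to coenzyme A uptake, had 14.1, 17.1, 14.7, 14.8 and 13.9 CPM in 3y_swim and 26.1, 25.5, 29.96, 25.7 and 26.8 CPM in 1y_swim, a change of -0.84 ± 0.13 (SE, adjusted p = 0.000465 by edgeR) with no overlap. The NAD carrier slc25a51b averaged 6.97 ± 0.927 CPM in 3y_control and 13.5 ± 2.28 CPM in 1y_control (SD, n = 5), again with no overlap, a change of -0.95 ± 0.19 (adjusted p = 0.0191). SLC25A26, which imports S-adenosylmethionine for methylation inside mitochondria, rose with the swim tunnel at 1 year. It had 11.9, 16.5, 17.4, 13.4 and 14.4 CPM in 1y_swim and 7.34, 9.21, 10.3, 12.2 and 8.73 CPM in 1y_control, overlapping by a small margin, and a change of 0.62 ± 0.15 (adjusted p = 0.0453). In RPKM, which uses plain totals, the overlap was wider, at 6.492 to 8.477 in 1y_swim and 5.11 to 8.144 in 1y_control. With library totals the call was lost (0.22, adjusted p = 0.253 by edgeR).

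Among the carriers of di- and tricarboxylates, 1 of 8 rose and 1 fell between 3y_swim and 1y_swim, against 7.59% and 10.1% of all genes. The member that rose was slc25a1a, a citrate carrier gene of low level whose product exports citrate for lipid synthesis. It had 1.54, 0.969, 1.38, 1.5 and 0.999 CPM in 3y_swim, 1.48, 1.36, 2.09, 1.48 and 1.37 CPM in 3y_control, 0.511, 0.444, 0.575, 0.589 and 0.544 CPM in 1y_swim and 0.42, 0.617, 0.642, 0.959 and 0.604 CPM in 1y_control. The old groups lay wholly above the young groups under both conditions, with changes of 1.26 ± 0.23 after the swim tunnel and 1.26 ± 0.23 without it (log2 change ± SE, adjusted p = 0.00153 and 0.0123 by edgeR). These levels correspond to about 40.5 counts per library on average. The dicarboxylate carrier SLC25A10 (ENSDARG00000097890) was lower at 3 years in the averaged comparison (-0.77, adjusted p = 0.0252), a call that held in 19 of 20 fits that left out 1 library and under 6 of 8 other settings. Its second row, SLC25A10 (ENSDARG00000025074), and the other citrate carrier row tested, SLC25A1 (ENSDARG00000076381), were called in no comparison, at 0.411 to 0.756 and 0.111 to 0.351 CPM in 3y_swim and 0.358 to 1.43 and 0.0411 to 0.383 CPM in 1y_swim.

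The calcium-regulated ATP-Mg/phosphate carriers gave 1 call among 4 tested, in 3y_swim against 1y_swim, where 17.7% of all genes were called. The carrier slc25a24 averaged 5.95 ± 1.85 CPM in 3y_swim and 3.15 ± 0.628 CPM in 1y_swim (SD, n = 5), a change of 0.92 ± 0.31 (SE, adjusted p = 0.0437 by edgeR). Its 3y_swim libraries (3.8 to 8.65 CPM) lay within the range of 1y_control (3.79 to 10.2 CPM) and overlapped 3y_control (2.86 to 8.25 CPM). With library totals it was called lower in 1y_swim than in 1y_control (-1.22, adjusted p = 0.0267 by edgeR). The abundant SLC25A25 (ENSDARG00000010572) spread widely within groups, with 98.8 to 399.9 CPM in 3y_swim, 88.2 to 241 CPM in 3y_control, 250.3 to 501 CPM in 1y_swim and 86.1 to 421 CPM in 1y_control, and the fit over all 20 libraries called it in no comparison; for averaged age it was called lower without 1y_control 1 (-0.78, adjusted p = 0.0369) or 3y_swim 2 (-0.81, adjusted p = 0.0458). None of the 3 tested carriers of iron and glutathione was called in the fit over all 20 libraries, in which at most 20.2% of all genes were called (averaged age). The nearest was the glutathione carrier slc25a39, whose averaged swim change of -0.89 ± 0.23 did not pass (adjusted p = 0.0833; DESeq2 gave 0.0122, voom 0.0392 and library totals 0.0159).

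SLC25A46, an outer-membrane member concerned with mitochondrial shape rather than transport, had 6.16, 6.98, 6.78, 7.95 and 8.58 CPM in 3y_swim and 10.1, 13.3, 14.5, 9.82 and 11.7 CPM in 1y_swim. The groups did not overlap and the change was -0.70 ± 0.13 (SE, adjusted p = 0.00167 by edgeR). RefSeq lists slc25a22, a glutamate carrier, as another name of slc25a55a. The fit over all 20 libraries called neither slc25a55b nor slc25a55a in any comparison, with slc25a55b at 84.5 to 201 CPM in 3y_swim and 80.6 to 124 CPM in 1y_swim. Between those groups slc25a55b was called higher with library totals (0.65, adjusted p = 0.0247) and without the 3 libraries of highest epidermis markers (0.76, adjusted p = 0.0459).

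The interaction asks whether the swim effect at 3 years differed from that at 1 year. No carrier was called by edgeR, against 0.335% of all genes (0.0529% higher and 0.282% lower). An unadjusted p under 0.05 was found in 13 of 52 carriers, 12 of them lower, against 2470 of 17025 genes, 1354 of them lower. The carrier median was -0.20, against 0.01 over all genes; with library totals it was 0.07 against 0.29, so the sign turned. The lowest adjusted p were those of SLC25A3 (ENSDARG00000025566) with -0.78 ± 0.19 (SE, adjusted p = 0.0855) and SLC25A5 with -1.51 ± 0.39 (adjusted p = 0.0935). For SLC25A5 the swim change was -0.93 ± 0.28 at 3 years and 0.58 ± 0.27 at 1 year, and for SLC25A4 it was -0.24 ± 0.14 and 0.41 ± 0.14. In the interaction 8 of 13 exocrine pancreas markers were called lower, and their part was not tested. Without 1y_control 4 edgeR called 2 members, SLC25A3 (-0.86, adjusted p = 0.0391) and SLC25A26 (-0.86, adjusted p = 0.0462), and DESeq2 on all libraries called 5: SLC25A3, SLC25A4, SLC25A5, SLC25A11 and SLC25A26. The shares of all genes called in these fits are not given, so their counts cannot be set against 0.335%.

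Beside the members, which were found by symbol alone, stand other genes of mitochondrial membrane transport, a list of 32 matched genes with 31 tested. The symbol rule does not take in family members that carry another name, so this list may hold some. Between 3y_swim and 1y_swim 13 of them fell and 3 rose, against 10.1% and 7.59% of all genes. Both subunits of the pyruvate carrier fell: MPC1 had 74.5, 82.3, 79, 86.8 and 84.5 CPM in 3y_swim and 152, 181, 214, 136 and 184 CPM in 1y_swim (-1.09 ± 0.19, SE, adjusted p = 0.000808 by edgeR), and MPC2 (ENSDARG00000024478) had 83.9, 112, 98.5, 104 and 102 CPM and 191, 212, 248, 175 and 229.6 CPM in the same groups (-1.08 ± 0.16, adjusted p = 0.000308). In neither gene did the groups overlap, whereas the second row, MPC2 (ENSDARG00000037679), did not pass (-0.14). Of the 5 tested carnitine palmitoyltransferase rows, which work on either side of SLC25A20, 3 fell, with changes of -2.08 ± 0.30 for CPT2, -0.96 ± 0.24 for CPT1B and -1.21 ± 0.26 for cpt1ab (log2 change ± SE, adjusted p = 0.000265, 0.00968 and 0.00424). The other two, of lower level, had positive changes that did not pass, 0.31 ± 0.18 for CPT1A and 1.65 ± 0.82 for cpt1a2b (adjusted p = 0.259 and 0.175).

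Also called lower in that list were ABCB8 and ABCB10, transporters of the inner membrane, the insertion factor MTCH2, and the ion exchange proteins LETM1, LETM2 and tmem65, with log2 changes from -1.16 (LETM1) to -0.60 (LETM2). Those called higher were the channel VDAC1 (0.95), SFXN5 (ENSDARG00000026137) (1.23) and smdt1a (0.65). That SFXN5 row lay near the floor, at 1.545 CPM in 3y_swim 1, 0.378 to 0.528 CPM in the rest of 3y_swim and 0.222 to 0.455 CPM in 1y_swim. Its second row, SFXN5 (ENSDARG00000103595), had 0 to 0.671 CPM in 3y_swim and 0.206 to 0.85 CPM in 1y_swim. The paralogue smdt1b had 18.3 to 31.9 CPM in 3y_swim and 17.75 to 44.5 CPM in 1y_swim (both added after their values were seen). At rest only ABCB10 was lower at 3 years (-0.72, adjusted p = 0.0248), against 0.535% of all genes. Averaged over both ages LETM2 rose with the swim tunnel (0.72, adjusted p = 0.0203), against 0.435% of all genes.

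Firmness differed between calls. In old against young exercised fish, SLC25A3 (ENSDARG00000025566), SLC25A4, SLC25A5, SLC25A11, SLC25A12, SLC25A16, SLC25A20, SLC25A32 (ENSDARG00000026835), SLC25A43, SLC25A46, SLC25A47, slc25a47b and slc25a1a were called in all 20 fits that left out 1 library and under all 9 other settings. At rest, SLC25A32 (ENSDARG00000089791) was called in all of them too. The calls of SLC25A26, slc25a24, SLC25A32 (ENSDARG00000089791), slc25a36b and SLC25A15 (ENSDARG00000063539) after the swim tunnel held in 8, 11, 12, 14 and 16 of the 20 fits, with adjusted p of up to 0.121 in the others, and under 2, 7, 6, 7 and 5 of the 9 other settings. There the calls of SLC25A36, UCP1 and SLC25A48 held in all 20 fits and under 7, 8 and 6 of the 9 settings. At rest SLC25A33 was lost without 3y_control 2 (-2.05, adjusted p = 0.0515), slc25a51b without 1y_control 4 (-0.86, 0.0537) or 3y_control 4 (-0.89, 0.0572), and SLC25A36 in 15 of 20 fits (0.69 to 0.87, adjusted p up to 0.124). The swim calls at 1 year held in 12 fits for SLC25A48 (0.80 to 1.04) and 6 each for SLC25A43 (1.44 to 1.94) and SLC25A26 (0.55 to 0.73), and under 5, 4 and 2 of the 9 other settings, with the direction kept in every one.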

How the data were processed

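Per the labels, total RNA of muscle was sequenced in 20 libraries of 4 groups. Per the submitters' processing notes, the tools were featureCounts 1.4.6-p4, STAR 2.4.1d and bcl2fastq 1.8.4, and the build was GRCz10; the annotation release, strand setting and treatment of multi-mapping reads are not given in the sources used here. The deposited counts are whole-number reads per Ensembl gene, without normalization. A further deposited table named RPKM was read as a score, since tested on 406 genes its divisors cycle through the libraries' totals row by row and do not stay with each library. It served only to recover gene lengths, from which RPKM was recomputed with own totals. Names came from a table pairing 26269 IDs with symbols, and gene neighbours from RefSeq (GRCz12tu).

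Counts were filtered with filterByExpr, scaled by TMM and fitted over all 20 libraries with edgeR 4.0.16 in R 4.3.3 (quasi-likelihood, robust; Benjamini-Hochberg over 17025 genes; called under 0.05). CPM of genes use TMM-scaled totals, and marker sums plain totals. Alternatives were RLE factors, library totals, DESeq2 1.42.0, voom with quality weights (limma 3.58.1), no filter, at least 1 CPM in 5 libraries, only the 10 libraries compared, and fits without 1 or several libraries. Scripts were tested on simulated data. The median SE of a carrier's change was 0.273 to 0.276 between groups and 0.39 for the interaction, and the biological coefficient of variation was 0.404. No 2 replicates matched within counting noise: over 40 pairs the chi-square per degree of freedom was 29.6 to 172.5.

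The members, the lists and the tests were chosen with earlier results of these data known. Values are named for members called in any comparison, the 10 highest per length, the 3 highest and 3 lowest changes per comparison where log2 CPM averaged 2 or more, their paralogues and the uncoupling proteins. Of 31 other transport names 26 were matched. A few genes that the rules would name are not reported here.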

Additional observations from a re-analysis of the deposited data

Results flagged for a closer look

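In groups of 5 libraries, a library was picked out when its gap to the nearest other library exceeded 0.71 of the group's whole range, the 95% critical value of Dixon's test. Of 160 groups examined over the tested and named carriers 13 held such a library, and chance gives about 1 in 20. The causes were not tested.

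Libraries that stood above their group were, in 3y_swim, 3y_swim 1 for SLC25A3 (ENSDARG00000025566) with 933.4 CPM (others 775.4 to 820.1), and 3y_swim 2 for SLC25A20 with 43.05 CPM (27.87 to 30.24) and for SLC25A16 with 17.09 CPM (13.95 to 14.84). In 3y_control they were 3y_control 1 for SLC25A3 (ENSDARG00000025566) with 1176 CPM (908.3 to 962.6), 3y_control 2 for UCP1 with 2.268 CPM (0.02316 to 0.2305), and 3y_control 3 for slc25a1a with 2.093 CPM (1.365 to 1.482). In 1y_swim 3 values stood high for SLC25A16 with 29.96 CPM (25.51 to 26.78), SLC25A15 (ENSDARG00000063539) with 2.63 CPM (1.74 to 1.967) and SLC25A3 (ENSDARG00000027424) with 0.3698 CPM (0.107 to 0.1483). Further high values were UCP1 in 1y_swim 2 with 18.34 CPM (3.189 to 7.359), slc25a51b in 1y_swim 1 with 18.04 CPM (7.921 to 10.64) and slc25a24 in 1y_control 5 with 10.16 CPM (3.794 to 4.509). The single low value was SLC25A33 in 1y_swim 4 with 39.1 CPM (90.02 to 107.6).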

How the results depend on the processing

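No call of a named carrier changed its direction under any setting run. Over the single carriers, 7655 values under other settings kept their side of the threshold, 82 passed only there and 213 no longer passed. The shares of all genes called under these settings are not given, so the counts below show only how the carrier calls moved. The count of carriers called, 3 for the swim tunnel at 1 year, was 1 with RLE factors, 5 with library totals (0 higher and 5 lower, 0 of the 3 kept), 8 with DESeq2, and 0 each without the low-count filter, without 1y_swim 2 and 1y_swim 3, and with only the 10 libraries compared. Leaving out 1 library gave 0 to 6: 0 without 1y_control 1, 2 or 3, 1y_swim 2, 3 or 5, 3y_control 5 or 3y_swim 3, 1 without 3y_control 2, 3y_control 3 or 3y_swim 1, 5 without 1y_swim 4 and 6 without 1y_swim 1. For the swim tunnel at 3 years DESeq2 gave 1 and leaving out 1 library 0. At rest the age count of 5 was 8 with voom and 3 with only the 10 libraries compared, and leaving out 1 library gave 3 (without 1y_control 4 or 3y_control 4) to 6. The interaction count of 0 was 5 with DESeq2, and leaving out 1 library gave 0 to 2 (2 without 1y_control 4). The averaged swim count of 2 was 5 with DESeq2, 4 with voom, 1 without the filter, 0 without 1y_swim 2 and 1y_swim 3, and 3 with library totals (2 higher and 1 lower); leaving out 1 library gave 1 to 3, with 1 (SLC25A48) without 1y_control 1, 2 or 3, 1y_swim 2, 3 or 5, 3y_control 1, 3 or 5, or 3y_swim 1, 4 or 5. The age count after the swim tunnel stayed at 17 to 25 and the averaged age count at 20 to 32 under every setting. Library totals moved the median over all genes to -0.40 for the swim tunnel at 1 year, -0.25 averaged over ages, 0.29 for age after the swim tunnel and for the interaction, and 0.13 for averaged age. No paired analysis was possible because the labels give no replicate numbers and no pairing of fish. Depth limits the 24 carriers under 1 RPKM most; the 10 untested ones averaged at most 21.7 counts.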

Other observations

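SLC25A38 (ENSDARG00000059805), a second row of the glycine carrier, was too sparse to be tested but concentrated in a few libraries. It had 0.146, 0.0248, 0.0294, 0.0556 and 0.108 CPM in 3y_swim, 0.115, 0.044, 0.12, 0 and 0.0527 CPM in 3y_control, 0.179, 2.62, 9.37, 0.161 and 1.58 CPM in 1y_swim and 0.073, 0.0441, 0, 0.144 and 0.367 CPM in 1y_control. The libraries 1y_swim 2, 1y_swim 3 and 1y_swim 5 lay above all others. Without the 3 libraries of highest epidermis markers (3y_swim 1, 3y_swim 3 and 1y_control 5) it passed the filter, but only through those 1y_swim libraries. That setting also took out 1y_control 5, the highest 1y_control library of the row. Its log2 change in 1y_swim against 1y_control was 5.21 there (adjusted p = 0.0371 by edgeR). As the same high values admitted the row to the test, this p-value is no support for a difference. Its tested paralogue SLC25A38 (ENSDARG00000074533) measured 14.2, 12.1, 9.41, 15.1 and 15.9 CPM in 1y_swim and 11.3, 14.7, 16.2, 13.7 and 8.71 CPM in 1y_control; 1y_swim 3, the highest library of the sparse row, was the lowest of its group for the paralogue. Without the low-count filter the sparse row was called lower in 3y_swim than in 1y_swim (-5.06, adjusted p = 0.00529 by edgeR). That call rests on the same high 1y_swim libraries, for which the row was picked out, so its p-value is no support either.

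SLC25A25 (ENSDARG00000035468), the sparse paralogue of the abundant ATP-Mg/phosphate carrier, picked out after its values were seen, had 0.417, 0.522, 0.235, 0.195 and 0.378 CPM in 3y_swim, 0.254, 0.176, 0.625, 0.208 and 0.607 CPM in 3y_control, 0.664, 0.481, 0.0822, 0.401 and 0.494 CPM in 1y_swim and 0.694, 0.727, 1.1, 0.983 and 0.798 CPM in 1y_control. Each 1y_control library was above every library of the other groups, and the fit over all 20 libraries called it in no comparison (adjusted p = 0.225 for the swim tunnel at 1 year, 0.185 for age at rest and 0.099 for averaged age). For averaged age it was called lower without 1y_swim 3 (-0.87, adjusted p = 0.0298), without 1y_swim 2 and 1y_swim 3 together (-0.88, adjusted p = 0.0423) and by voom (-0.91, adjusted p = 0.0172), and voom also called it for age at rest (-1.31, adjusted p = 0.0427).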
